A study of Mus musculus with 12 samples.

Results

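In all, 9 genes of the interferon regulatory factor (IRF) and signal transducer and activator of transcription (STAT) families were followed in bone marrow-derived macrophages (BMDMs). They were taken by symbol from the deposited expression table, which lists 38739 gene symbols, and were Irf1, Irf2, Irf4, Irf5, Irf7, Irf8, Stat2, Stat4 and Stat6. RNA from BMDMs of WT mice and of mice without cGAS (cGAS-/-, an inactivated cytosolic DNA sensor) was sequenced in 12 samples, which form 4 groups of 3: untreated WT (WT UT), stimulated WT (WT LPS), untreated cGAS-/- (cGAS-/- UT) and stimulated cGAS-/- (cGAS-/- LPS). UT cells received medium alone and LPS cells received lipopolysaccharide, a component of the outer membrane of Gram-negative bacteria. Both genotypes were on the C57BL/6J background, and the methods describe male mice of 8 weeks. By the methods the WT mice were purchased in Thailand and the cGAS-/- mice came from Aarhus University. Genotype and source of the mice therefore cannot be told apart. Stimulation was with 150 ng/mL for 24 h by the methods but with 100 ng/mL for 1 h by the sample labels, which also name neutrophils in the extraction step, so the dose and time behind the LPS values are uncertain. The 3 samples of a group are called technical replicates by the study, so a p-value here measures the spread between these samples and not between mice.

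IRF proteins bind DNA at repeats of GAAA. IRF7 and IRF5 sit downstream of toll-like receptors and drive interferon and cytokine genes, IRF1 is itself an interferon target, IRF2 antagonises IRF1 at shared sites, IRF8 is a lineage factor of monocytes and macrophages, and IRF4 acts in lymphocytes and in alternatively activated macrophages. STAT proteins are activated by Janus kinases at cytokine receptors: STAT2 pairs with another STAT and with IRF9 to carry the type I interferon signal to interferon-stimulated response elements (ISRE), STAT4 answers to interleukin 12, and STAT6 answers to interleukin 4 and interleukin 13. Many other STAT dimers bind the gamma-activated sequence (GAS), and LPS also activates NF-κB.

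The deposited values were taken as TPM, a share of all transcripts that is scaled for transcript length, averaged over the transcripts listed under a gene symbol. The unit is an inference from the numbers themselves, and since the number of transcripts behind the average was recovered for 5 of the 9 genes (3 for Irf4, 6 for Irf5, 7 for Irf8, 11 for Irf2 and 13 for Irf7), levels are compared between groups and not between genes. The number of reads is unknown. Summed over all genes, WT LPS replicate 3 reached 709802 and the other 11 samples 447189 to 503156. In that sample the ferritin pseudogene Fth-ps3 held 31.7% of the sum, against 6.24% to 17.7% elsewhere. The WT LPS samples stood apart in their spread: the median SD of a gene on the log2 scale was 0.635 in WT LPS and 0.119 to 0.146 in the other groups. Cgas, the inactivated gene, lay between 1.19 and 3.25 TPM in WT and between 0.0703 and 0.291 TPM in cGAS-/- samples. All 12 macrophage markers analysed were expressed, and 3 more of the list (Csf1r, Adgre1 and Cd14) were not analysed here. All 16 T and NK cell markers stayed under 1 TPM in every sample, as did 9 of 11 dendritic cell markers, whereas 5 of 9 B cell markers passed 1 TPM in some sample (the highest was 42.8) and 6 of 9 neutrophil markers did. In these bulk samples, fewer cells of a type and less RNA per cell cannot be told apart.

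The stretches upstream of the genes are shown first, because the elements that IRF, STAT and NF-κB proteins read are letters in these promoters. RefSeq windows (promoter table of GRCm38.p6) were placed in GRCm39 by exact match, which gave 12 starts for the 9 genes. They were searched on both strands for an ISRE core (GAAA, any 2 bases, GAAA), a GAS element (TTC, any 3 bases, GAA) and the NF-κB consensus. Capitals mark a match, and a match is a description of the letters, not of binding. The 250 bases before the start of the 3 genes with higher values under LPS in both genotypes, 5′ to 3′ on the gene's strand, were as follows.
Irf1 (GRCm39 chr11:53660591-53660840, + strand; GAS and NF-κB): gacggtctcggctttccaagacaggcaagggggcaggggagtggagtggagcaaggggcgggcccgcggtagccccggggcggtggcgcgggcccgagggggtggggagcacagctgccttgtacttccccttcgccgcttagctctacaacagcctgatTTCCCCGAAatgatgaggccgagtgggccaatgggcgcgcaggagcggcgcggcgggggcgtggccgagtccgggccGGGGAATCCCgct
Stat2 (GRCm39 chr10:128106117-128106366, + strand; ISRE): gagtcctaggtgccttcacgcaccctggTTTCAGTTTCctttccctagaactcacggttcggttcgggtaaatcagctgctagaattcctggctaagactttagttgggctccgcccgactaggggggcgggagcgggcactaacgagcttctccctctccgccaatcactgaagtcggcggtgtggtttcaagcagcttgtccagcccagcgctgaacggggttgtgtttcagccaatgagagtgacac
Irf7 (GRCm39 chr7:140846338-140846587, − strand; no match): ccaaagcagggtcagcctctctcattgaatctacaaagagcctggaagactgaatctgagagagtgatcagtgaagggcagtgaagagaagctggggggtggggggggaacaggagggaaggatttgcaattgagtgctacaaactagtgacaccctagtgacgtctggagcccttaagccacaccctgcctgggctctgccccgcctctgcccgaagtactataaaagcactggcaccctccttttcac
In Irf1 the GAS element ended 82 bases and the NF-κB match 4 bases before the start, and the ISRE of Stat2 ended 213 bases before it. The Irf7 window held none of the 3 elements, which says only that these letters are not in this stretch.

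Shorter stretches are given for 3 genes that did not rise with LPS, to show that these letters also stand there.
Irf8 (GRCm39 chr8:121462907-121462967, + strand; a pair of GAS elements): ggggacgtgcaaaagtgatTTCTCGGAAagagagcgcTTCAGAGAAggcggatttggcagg
Stat4, start 2 (GRCm39 chr1:52047279-52047329, + strand; ISRE): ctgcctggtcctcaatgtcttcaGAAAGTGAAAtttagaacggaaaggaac
Irf2 (GRCm39 chr8:47192530-47192580, + strand; ISRE and GAS): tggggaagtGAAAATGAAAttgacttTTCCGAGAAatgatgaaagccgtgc
Irf2 also held an NF-κB match that ended 8 bases before its start. Irf4, Irf5 and Stat6 had no match to any of the 3 elements. Of the 12 windows, 3 held an ISRE, 3 a GAS element and 2 an NF-κB match. Of all 32851 windows of this length in the table, 3.44% held an ISRE, 8.30% a GAS element and 8.46% an NF-κB match.

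**Figure D1:**
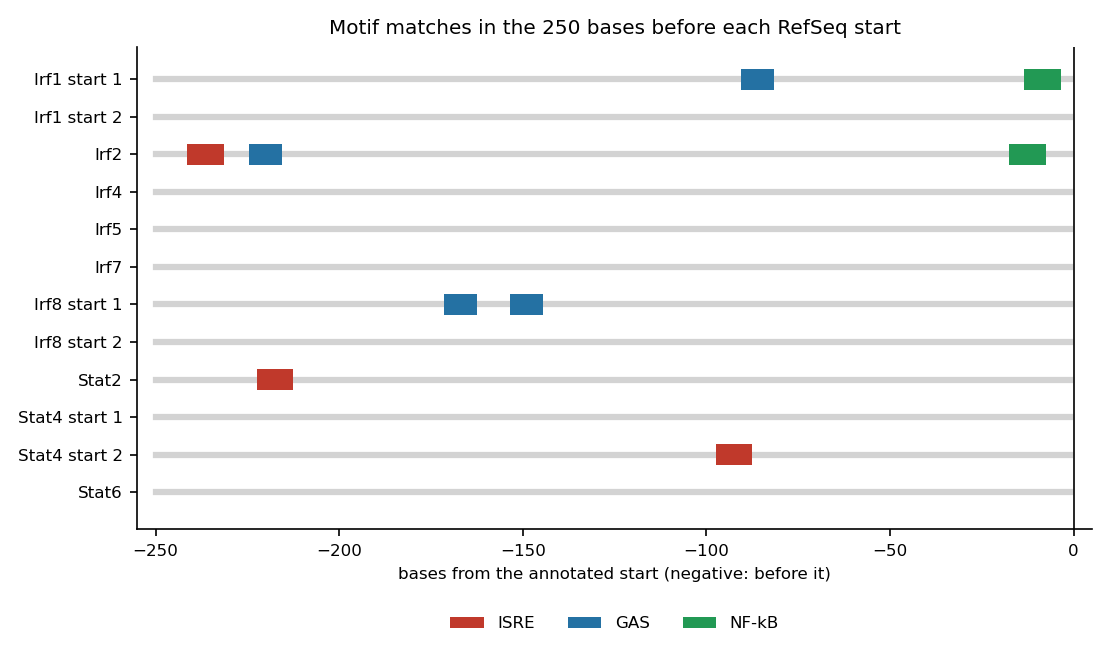
Positions of ISRE, GAS and NF-κB matches in the 250 bases before each of the 12 RefSeq starts of the 9 genes; the x axis is the distance from the start in bases and each grey line is 1 window. Irf1 start 1, Irf2, Irf8 start 1, Stat2 and Stat4 start 2 hold a match, and the other 7 windows hold none.

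LPS raised Irf7, Stat2 and Irf1 in both genotypes. The comparison of LPS with UT cells asks how the factors respond to the stimulus within a genotype. Limma was fitted to log2(TPM + 1) of the 11887 genes that reached 1 TPM in 3 samples, and 8 of the 9 genes were among them, all but Irf4. In WT cells 5 of 8 passed (an adjusted p under 0.05), 3 higher and 2 lower, when 27.6% of all tested genes passed, 4.31% higher and 23.3% lower. In cGAS-/- cells 3 of 8 passed, all higher, when 13.8% of all genes passed, 4.76% higher and 9.06% lower. Irf7 and Stat2 also passed the log2 fold change of 2 that the methods set, in both genotypes, as 4.32% of all genes did in WT and 3.50% in cGAS-/- cells. Since the median gene moved by −0.46 with LPS in WT cells and by −0.20 in cGAS-/- cells on the log2 scale, changes relative to that median are given as well.

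Irf7 (chromosome 7, 140842619 to 140846398 of GRCm39, − strand), the interferon-inducible factor that amplifies type I interferon, had the largest log2 fold change of the 8 tested genes. In WT UT cells it stood at 2.67, 3.76 and 4.44 TPM in replicates 1 to 3, and in WT LPS cells at 134, 179 and 41.3 TPM. In cGAS-/- UT cells it stood at 0.837, 1.27 and 1.23 TPM, and in cGAS-/- LPS cells at 91.4, 88.7 and 86.5 TPM. Every LPS sample lay above every UT sample, while WT LPS replicate 3 was well below the other WT LPS samples and below all cGAS-/- LPS samples. The group mean was 32.5-fold higher with LPS in WT (43.1-fold without replicate 3 of WT LPS) and 79.8-fold higher in cGAS-/-. On the log2 scale the rise was 4.46 ± 0.44 (SE, limma adjusted p = 4.57e-05) in WT and 5.42 ± 0.44 (SE, limma adjusted p = 1.27e-05) in cGAS-/- cells, or 4.93 and 5.62 relative to the median gene. The difference between these responses was 0.95, with a 95% interval of −0.42 to 2.32 (limma adjusted p = 0.607), so the larger fold in cGAS-/- was within the spread. Irf7 and Stat2 passed under all 24 alternatives in both genotypes.

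Stat2 (chromosome 10, 128106352 to 128128735, + strand), the STAT of the type I interferon signal, followed the same order of groups. Its values were 5.64, 5.81 and 5.96 TPM in WT UT and 21.7, 48.8 and 24.2 TPM in WT LPS cells. In cGAS-/- they were 3.82, 4.64 and 3.70 TPM in UT and 26.7, 25.7 and 23.9 TPM in LPS cells. The LPS samples lay above the UT samples in both genotypes, and WT LPS replicate 2 was well above every other sample. The log2 fold change was 2.17 ± 0.28 (SE, limma adjusted p = 3.26e-04) in WT and 2.39 ± 0.28 (SE, limma adjusted p = 1.87e-04) in cGAS-/- cells, or 2.63 and 2.59 relative to the median gene. The responses differed by 0.22 (95% interval −0.66 to 1.11).

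Irf1 (chromosome 11, 53660812 to 53669200, + strand), an activator of interferon and antigen presentation genes, rose less. It was at 5.29, 5.07 and 4.64 TPM in WT UT and at 7.28, 16.7 and 14.9 TPM in WT LPS cells. In cGAS-/- it was at 3.44, 3.49 and 3.73 TPM in UT and at 7.72, 8.46 and 6.89 TPM in LPS cells. Groups of the same genotype did not overlap, and WT LPS replicate 1 lay within the range of the cGAS-/- LPS samples. The log2 fold change was 1.15 ± 0.27 (SE, limma adjusted p = 0.0108) in WT and 0.93 ± 0.27 (SE, limma adjusted p = 0.0429) in cGAS-/- cells, and the difference was −0.22 (95% interval −1.06 to 0.62). The call in cGAS-/- was lost under 14 of 24 alternatives, and that in WT under 1, the fit to the 6 WT samples alone (adjusted p = 0.143). The antisense gene Gm17334 shares 31.4% of the exon bases of Irf1 and lay between 0.268 and 1.32 TPM, and the sources used here do not say whether strand was used in counting, so the reads of the pair may be shared.

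**Figure D2:**
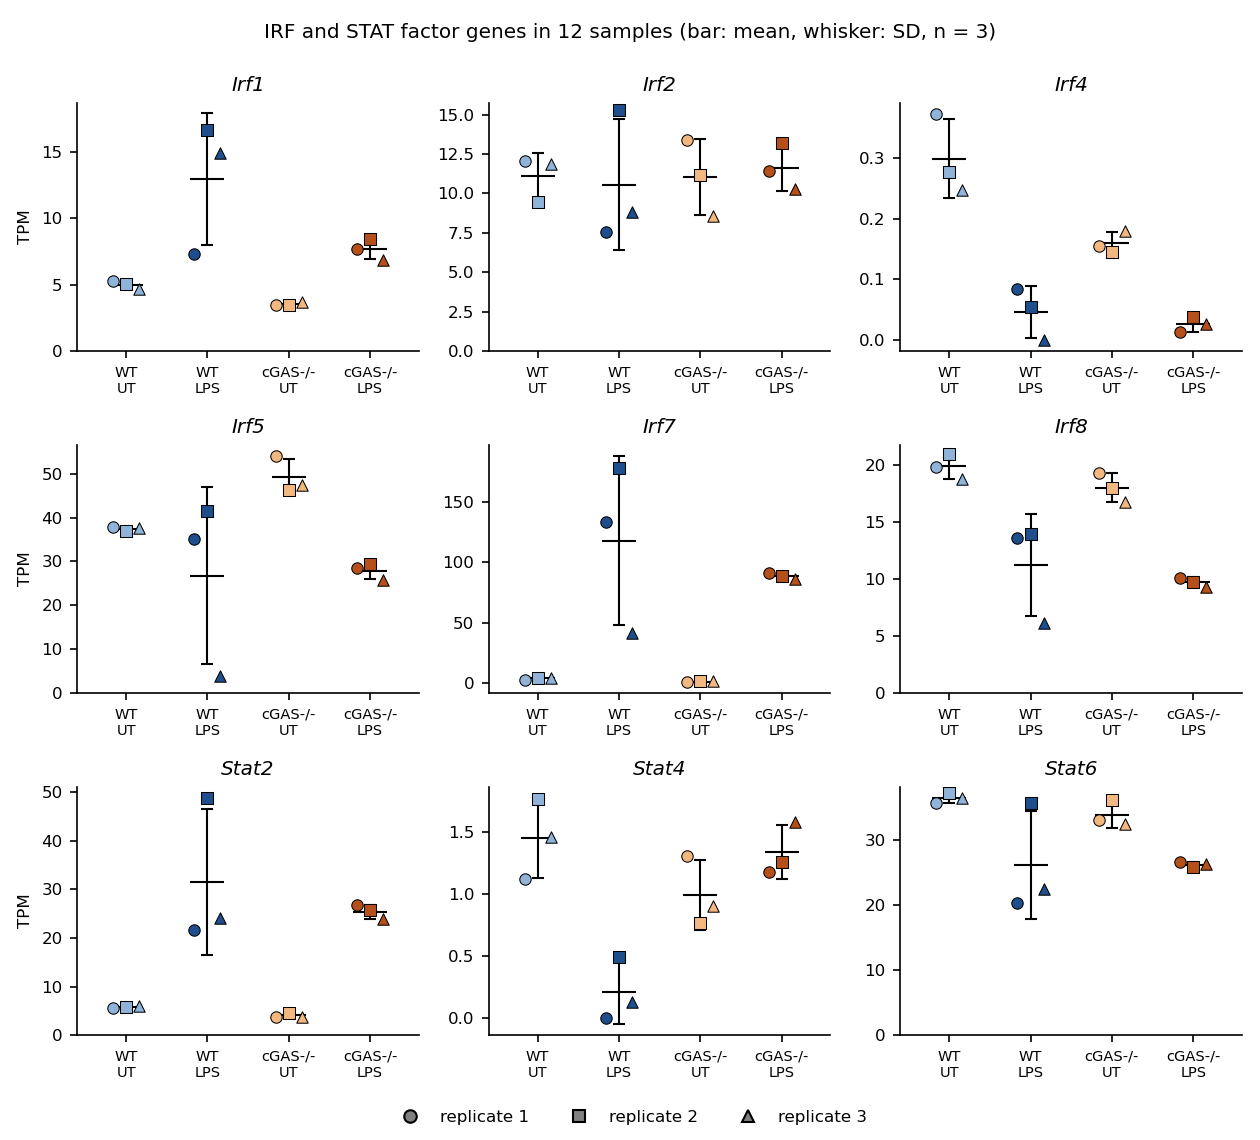
TPM of the 9 genes in each of the 12 samples, 1 panel per gene with its own linear axis; points are samples (shape gives the replicate number), bars are group means and whiskers the SD (n = 3). Irf7, Stat2 and Irf1 are higher in all LPS samples than in all UT samples of the same genotype, and WT LPS replicate 3 is apart from replicates 1 and 2 in Irf5, Irf7 and Irf8.

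Among the factors of macrophage identity, Irf8 was called lower with LPS in WT cells and Irf5 was not called in either genotype. Irf8 (chromosome 8, 121463096 to 121485659, + strand) was at 19.9, 21.0 and 18.8 TPM in WT UT and 13.6, 14.01 and 6.13 TPM in WT LPS cells. In cGAS-/- cells it was at 19.3, 18.0 and 16.8 TPM in UT and at 10.1, 9.76 and 9.33 TPM with LPS. All LPS samples lay below all UT samples of either genotype. The log2 fold change was −0.85 ± 0.28 (SE, limma adjusted p = 0.0447) in WT and −0.82 ± 0.28 (SE, limma adjusted p = 0.0809) in cGAS-/- cells, which is −0.39 and −0.62 relative to the median gene. The WT call was lost under 16 of 24 alternatives, and with TMM factors the WT value of Irf8 was −0.20. Within the 6 cGAS-/- samples alone, where the spread was small, the fall in Irf8 passed (adjusted p = 2.52e-04), when 44.6% of all tested genes passed in that fit.

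Irf5 (chromosome 6, 29526276 to 29541870, + strand), an activator of inflammatory cytokine genes, was at 37.9, 37.0 and 37.5 TPM in WT UT and at 35.0, 41.5 and 3.84 TPM in WT LPS cells. In cGAS-/- it was at 54.0, 46.2 and 47.5 TPM in UT and at 28.5, 29.5 and 25.8 TPM in LPS cells. In WT the groups overlapped, with replicate 3 of WT LPS far below the rest, whereas in cGAS-/- they did not overlap. The log2 fold change was −0.98 (limma adjusted p = 0.258) in WT and −0.80 (limma adjusted p = 0.513) in cGAS-/- cells. Without WT LPS replicate 3 these values were 0.02 (adjusted p = 0.882) and −0.80 (adjusted p = 2.39e-04), and the difference between the LPS responses of Irf5 was −0.82 (adjusted p = 0.0165) in place of 0.18 (adjusted p = 0.935). Without that sample 30.8% of all tested genes passed for LPS in cGAS-/- and 4.56% for the difference.

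Irf2, the antagonist of Irf1 (chromosome 8, 47192222 to 47300501, + strand), overlapped between all groups. It ranged from 7.54 to 15.3 TPM in WT LPS and from 8.60 to 13.4 TPM in the other groups. Its log2 fold change was −0.12 (95% interval −0.73 to 0.49) in WT and 0.08 (95% interval −0.53 to 0.69) in cGAS-/- cells, and the sign of the WT value turned with TMM factors (0.52). Irf4 (chromosome 13, 30933209 to 30950959, + strand) was near the lower end of the table. It was at 0.373, 0.278 and 0.248 TPM in WT UT, at 0.0848, 0.0549 and 0 in WT LPS, at 0.155, 0.146 and 0.180 in cGAS-/- UT, and at 0.0125, 0.0381 and 0.0259 in cGAS-/- LPS cells. The UT samples lay above the LPS samples in both genotypes. In a fit with no filter on low values, Irf4 fell by 0.31 on the log2 scale in WT (limma adjusted p = 0.00263) and stood at −0.18 in cGAS-/- cells (limma adjusted p = 0.0616), where the pseudocount of 1 exceeds the values themselves. B cells also express Irf4 and Irf8, and the summed level of the 9 B cell markers was 71.5 to 83.5 TPM in WT UT, 16.3 to 40.7 TPM in WT LPS, 48.5 to 59.98 TPM in cGAS-/- UT and 28.7 to 32.7 TPM in cGAS-/- LPS samples. Ighm (0.388 to 42.8 TPM over the 12 samples) and Cd37 (12.6 to 38.0 TPM) carried most of that sum. With LPS in WT cells Ighm was lower (−3.29, limma adjusted p = 7.03e-04) and Cd79a, a part of the B cell receptor, was higher (0.85, limma adjusted p = 0.0368), so the list did not move one way there. In cGAS-/- cells Ighm was lower with LPS (−3.31, limma adjusted p = 8.20e-04) and no tested marker was called higher. The part of these markers in the values of Irf4 and Irf8 was not tested.

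Of the STAT factors outside the interferon signal, Stat4 was called lower with LPS in WT cells, and Stat6 was not called in either genotype. Stat4 (chromosome 1, 52026307 to 52151423, + strand), the interleukin 12 transducer, was at 1.12, 1.77 and 1.46 TPM in WT UT and at 0, 0.495 and 0.131 TPM in WT LPS cells. In cGAS-/- it was at 1.31, 0.765 and 0.901 TPM in UT and at 1.18, 1.26 and 1.59 TPM in LPS cells. The WT LPS samples lay below every other sample, and the cGAS-/- groups overlapped. The log2 fold change was −1.03 ± 0.196 (SE, limma adjusted p = 0.00337) in WT and 0.24 ± 0.196 (SE, limma adjusted p = 0.526) in cGAS-/- cells. The difference of these responses, 1.27 (95% interval 0.66 to 1.88), did not pass over all genes (limma adjusted p = 0.067). The predicted gene Gm28177 shares 11.5% of the exon bases of Stat4 on the same strand. It stood at 1.49, 0.325 and 2.20 TPM in WT LPS, at 0.723, 0.803 and 0.570 TPM in cGAS-/- LPS and at 0 in all UT samples but 1 (0.104), so the split of reads between the pair is uncertain and its part in the Stat4 values was not tested. The antisense gene Gm31812 shares 29.6% of the exon bases and lay between 0 and 1.39 TPM. T and NK cell markers, whose cells are known for STAT4, stayed at or under 0.457 TPM in every sample, and their summed level was 1.10 to 1.75 TPM in WT UT, 0.390 to 1.18 TPM in WT LPS, 0.886 to 1.14 TPM in cGAS-/- UT and 0.654 to 1.10 TPM in cGAS-/- LPS cells. Their part in the Stat4 values was not tested.

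Stat6 (chromosome 10, 127477821 to 127496862, + strand), the interleukin 4 transducer, was at 35.8, 37.2 and 36.5 TPM in WT UT and at 20.3, 35.8 and 22.6 TPM in WT LPS cells. In cGAS-/- it was at 33.2, 36.3 and 32.5 TPM in UT and at 26.6, 25.8 and 26.3 TPM in LPS cells. The LPS samples lay below the UT samples of their genotype, although WT LPS replicate 2 only just did. The log2 fold change was −0.50 (95% interval −1.03 to 0.02, limma adjusted p = 0.13) in WT and −0.36 (95% interval −0.88 to 0.17, limma adjusted p = 0.408) in cGAS-/- cells. Relative to the median gene these were −0.04 and −0.16, and the WT value of Stat6 was 0.17 with TMM factors and −0.74 without WT LPS replicate 2 (adjusted p = 0.00322, when 48.7% of all tested genes passed).

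The samples of LPS and UT did not overlap for 6 of the 8 tested genes in WT, when this held for 38.2% of all tested genes, and for 6 of 8 in cGAS-/-, when it held for 55.7%; Irf4 adds 1 to each. Within the 6 cGAS-/- samples alone 6 of 8 passed, namely Irf1, Irf7 and Stat2 higher and Irf5, Irf8 and Stat6 lower, when the same fit called 44.6% of all tested genes. Within the 6 WT samples alone only Irf7 (adjusted p = 0.0107) and Stat2 (adjusted p = 0.0312) did, when 6.02% of all tested genes passed.

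**Figure D3:**
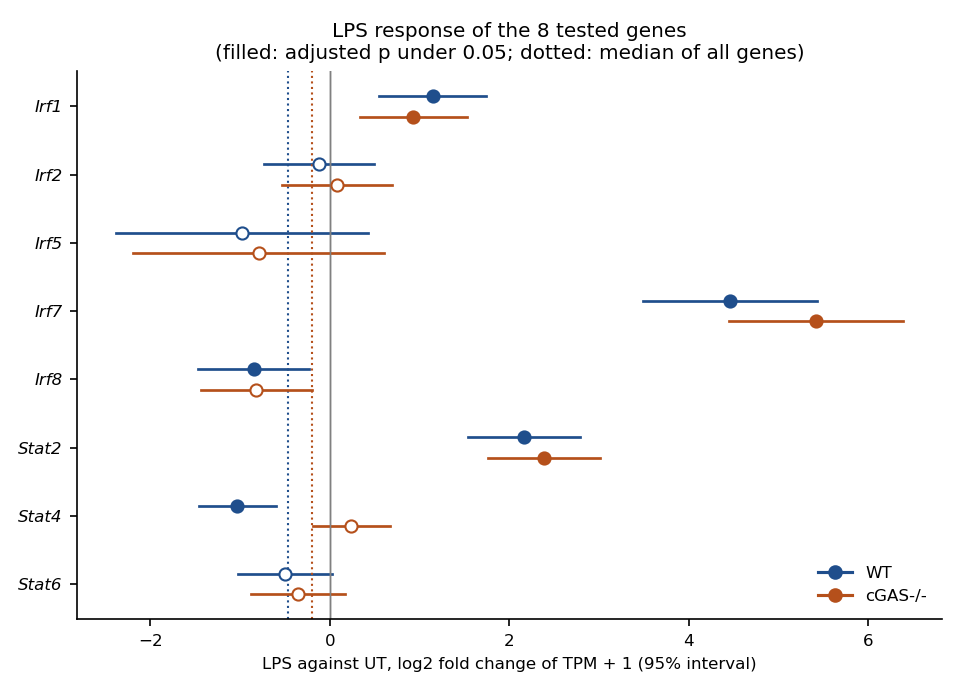
Log2 fold change of TPM + 1 between LPS and UT cells with its 95% interval for the 8 tested genes in WT (blue) and cGAS-/- (orange) cells; filled points passed an adjusted p of 0.05 in limma, and dotted lines mark the median of all 11887 genes. Irf7 (4.46 and 5.42) and Stat2 (2.17 and 2.39) lie to the right, and Stat4 is filled in WT alone.

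Between UT cells, no gene of the 9 was called different in cGAS-/- against WT, although Irf7, Stat2 and Irf1 were lower in every cGAS-/- UT sample than in any WT UT sample. This comparison asks whether the level before stimulation differs between the genotypes, whose mice also differ in source. None of 8 passed in limma, when 1.83% of all genes did, and Irf7 alone had an unadjusted p under 0.05. The mean of Irf7 was 3.62 ± 0.893 TPM (SD, n = 3) in WT UT and 1.11 ± 0.240 TPM in cGAS-/- UT cells, which is 3.26-fold lower. Its log2 fold change was −1.12 ± 0.44 (SE, limma adjusted p = 0.45). Stat2 was 5.80 ± 0.157 and 4.05 ± 0.514 TPM (log2 fold change −0.43, limma adjusted p = 1), and Irf1 was 5.00 ± 0.329 and 3.55 ± 0.156 TPM (−0.40, limma adjusted p = 1). Irf5 went the other way, at 37.5 ± 0.445 and 49.2 ± 4.18 TPM (0.38, limma adjusted p = 1). Of the 8 tested genes, 4 did not overlap between the genotypes, Irf5 above and Irf1, Irf7 and Stat2 below, when 30.5% of all tested genes did not; Irf4 was also lower. Irf2, Irf8, Stat4 and Stat6 overlapped, with log2 fold changes from −0.30 to −0.02. In the same comparison 3 of 7 tested neutrophil markers were lower in cGAS-/- (the summed level of the 9 listed was 158 to 232 TPM in WT UT and 67.2 to 142 TPM in cGAS-/- UT samples), when 1.58% of all tested genes were called lower, and their part in these values was not tested.

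The shared estimate of spread, which the WT LPS samples widen, bears on these UT calls. Fitted to the 6 UT samples alone, Irf7 (adjusted p = 0.017), Irf5 (0.0224), Irf1 (0.0323) and Stat2 (0.0422) passed with the same fold changes, when 10.4% of all tested genes passed. With weights per sample Irf7 (adjusted p = 3.50e-04), Stat2 (0.0326) and Irf1 (0.0372) passed, as 11.5% of all tested genes did, and without WT LPS replicate 3 Irf7 alone did (adjusted p = 0.00372), beside 5.33% of all tested genes.

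With LPS, Stat4 alone was called between the genotypes. This comparison asks whether the stimulated level differs between the genotypes, whose mice also differ in source. The mean of Stat4 was 0.209 ± 0.257 TPM in WT LPS and 1.34 ± 0.215 TPM in cGAS-/- LPS cells (SD, n = 3), a log2 fold change of 0.97 ± 0.196 (SE, limma adjusted p = 0.0286) or 0.77 relative to the median gene, which stood at 0.20, and 2.36% of all genes passed. It was the 1 gene of the 8 whose groups did not overlap, when 17.7% of all tested genes did not. Its call was lost under 11 of 23 alternatives. Irf7 was 118 ± 70.0 and 88.9 ± 2.48 TPM (log2 fold change −0.17, 95% interval −1.13 to 0.80), Stat2 was 31.6 ± 15.0 and 25.4 ± 1.45 TPM (−0.21, 95% interval −0.83 to 0.41), and Irf1 was 13.0 ± 4.99 and 7.69 ± 0.785 TPM (−0.61, limma adjusted p = 0.256). The WT LPS and cGAS-/- LPS samples overlapped at each of these, so neither a lower nor an equal level is shown. Without WT LPS replicate 1 Irf1 passed (−0.95, adjusted p = 0.0243), as did 2.97% of all tested genes.

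Without WT LPS replicate 3, Irf7 (−0.79, adjusted p = 0.0299), Irf8 (−0.46, adjusted p = 0.0238) and Irf5 (−0.44, adjusted p = 0.045) were lower in cGAS-/- LPS cells and Stat4 was higher (0.93, adjusted p = 0.0229), when 8.28% of all tested genes passed in either direction. Irf5 thereby turned from 0.57 to −0.44. The interaction term, which tests whether LPS acted differently in the genotypes, passed for none of the 8 (0.900% of all genes passed). At an unadjusted p under 0.05 it gave 1, Stat4.

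**Figure D4:**
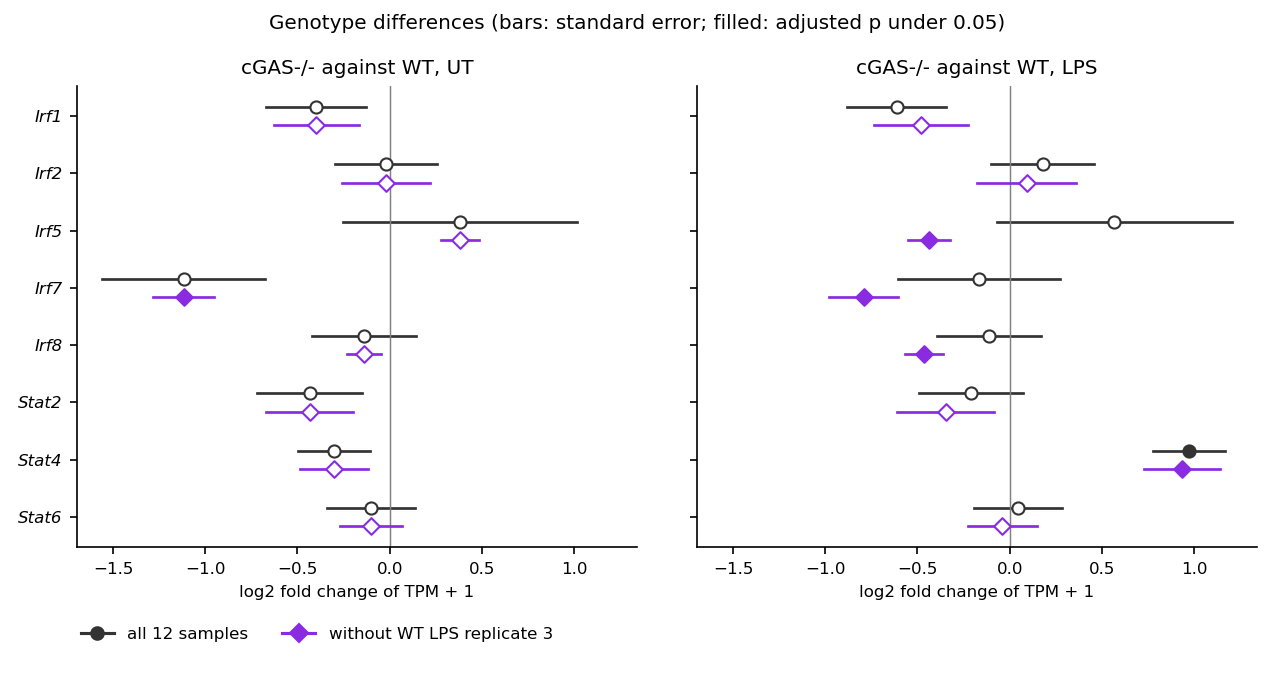
Log2 fold change of TPM + 1 between cGAS-/- and WT cells with its standard error, in UT (left) and LPS (right), for the 8 tested genes, over all 12 samples (circles) and without WT LPS replicate 3 (diamonds); filled marks passed an adjusted p of 0.05. Leaving that sample out moves Irf5 from 0.57 to −0.44 and Irf7 from −0.17 to −0.79 with LPS.

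The genes around these factors were described from lists written from general knowledge. Earlier results of these data were known when the lists were chosen, so their counts are a description. Other members of the families came first. Irf3, Stat3, Stat5a and Stat5b were tested and none of 4 passed in any comparison (1, in WT LPS against UT, had an unadjusted p under 0.05). Irf3, which is activated by phosphorylation, was 8.30 ± 1.14 TPM in WT UT and 5.70 ± 1.39 TPM in WT LPS cells, which is −0.49 on the log2 scale. Stat3 was 4.32 ± 0.814 and 5.88 ± 2.50 TPM. Irf9 was not analysed here.

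Of 10 listed ligands that feed these factors, 7 met the filter, and Ifng, Il13 and Il12b did not. Of the 7 tested, 3 rose and 1 fell with LPS in WT, and 3 rose in cGAS-/- cells. Ifnb1, Il6 and Il12a met the filter only through LPS samples, Il12a through those of cGAS-/- alone. The filter thus favoured genes that rose, which limits these counts and calls. Of all tested genes, 4.31% (WT) and 4.76% (cGAS-/-) passed as higher, and 23.3% and 9.06% as lower, and the counts of the lists that follow have the same background. Ifnb1, the interferon-β gene that IRF factors drive, rose from 0.10 ± 0.17 to 8.4 ± 1.2 TPM in WT (log2 fold change 3.10, limma adjusted p = 1.58e-06) and from 0 in every sample to 3.08 ± 0.445 TPM in cGAS-/- cells (2.02, limma adjusted p = 2.38e-05). With LPS it was lower in cGAS-/- than in WT cells, by −1.21 (limma adjusted p = 0.00597). Il6, which signals through STAT3, was 0.801 ± 0.256 TPM in WT LPS and 14.2 ± 1.58 TPM in cGAS-/- LPS cells (3.09, limma adjusted p = 4.24e-06). Il12a, a subunit of the ligand of the STAT4 pathway, was 0.179 ± 0.157 and 3.58 ± 0.809 TPM (1.95, limma adjusted p = 1.90e-04), and for both the LPS responses differed (interaction 3.14 and 1.96, limma adjusted p = 2.88e-04 and 0.0033).

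Of 16 receptors and Janus kinases listed, 7 were not analysed here, among them Ifnar1, Ifnar2 and Jak2. Of 8 tested, 1 rose and 3 fell with LPS in WT, and 1 rose and 1 fell in cGAS-/- cells. Over all genes 23.3% and 9.06% were lower. Il4ra, the receptor chain upstream of STAT6, rose by 1.56 in WT and 1.14 in cGAS-/- cells on the log2 scale. Il12rb2, the chain that docks STAT4, fell from 1.35 ± 0.173 to 0.113 ± 0.195 TPM in WT and from 1.02 ± 0.163 to 0.0455 ± 0.0507 TPM in cGAS-/- cells. Ifngr1 fell in WT (−1.80, limma adjusted p = 0.0477), with WT LPS samples from 1.41 to 19.4 TPM, and stood at −1.02 in cGAS-/- cells. No gene of this list passed between the genotypes (0 in UT and 3 with LPS at an unadjusted p under 0.05).

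Of 12 tested adaptors and kinases of LPS and nucleic acid sensing (17 listed), 4 rose in each genotype and none fell. Over all genes 4.31% were higher in WT and 4.76% in cGAS-/- cells. Myd88, the adaptor of most toll-like receptors, rose by 1.52 and 1.36, and Ikbke, a kinase of IRF3 and IRF7, by 1.18 and 2.29. Of 12 tested negative regulators (20 listed), Usp18, which blocks interferon receptor signalling, rose by 4.55 in WT and 4.54 in cGAS-/- cells. Socs3, which inhibits STAT3 signalling, rose by 4.77 and 6.08. Pias3 (−1.05) and Irf2bp2 (−1.72) fell in WT cells, and no other gene of this list passed.

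The interferon-stimulated targets of STAT2 and the IRF factors rose with LPS in nearly all cases. In the LPS comparison, 39 of 43 rose in WT and 41 of 43 in cGAS-/- cells, none fell, and the median log2 fold change was 3.06 and 2.82 beside −0.46 and −0.20 over all genes. Cxcl10, a chemokine, rose by 5.97 in WT and 5.13 in cGAS-/- cells. In UT cells 2 of 43 were lower in cGAS-/-, Slfn1 (−1.37, limma adjusted p = 0.0276) and Ifi47 (−1.03, limma adjusted p = 0.0344), with a list median of −0.53 beside −0.04 over all genes, when 1.58% of all tested genes were lower. With LPS 5 of 43 were lower, among them Cxcl10 (−1.43, limma adjusted p = 0.00582) and Cxcl11 (−2.08, limma adjusted p = 0.0249), with a median of −0.20 beside 0.20, when 1.00% of all tested genes were lower. The interaction passed for 0 of 43 in limma (4 at an unadjusted p under 0.05). The mean level over the 43 genes on the log2 scale was 3.08 to 3.23 in WT UT, 2.57 to 2.63 in cGAS-/- UT, 5.41 to 6.96 in WT LPS and 5.80 to 5.90 in cGAS-/- LPS samples.

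Of 7 tested STAT6 targets, 1 rose and 4 fell with LPS in WT, and 1 rose and 2 fell in cGAS-/- cells. The gene that rose was Arg1 in both genotypes, by 4.945 in WT and 5.532 in cGAS-/- cells on the log2 scale. Mrc1, the mannose receptor, fell by 3.41 and 3.72 on the log2 scale. In UT cells Chil3 (−1.82), Mrc1 (−1.68) and Clec10a (limma adjusted p = 0.00769) were lower in cGAS-/- cells, while Stat6 stood at −0.10 with a 95% interval of −0.63 to 0.42. The lower neutrophil markers given above belong to the same comparison.

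The genes whose pattern was most like that of a factor were named by Pearson's r of log2 values over the 12 samples, among 8155 candidates, as a description. For Irf7 they were Ifi206 (r = 0.997), Arg1 (0.996) and Oas1a (0.995), and for Stat2 they were Ddx60 (0.996), Gbp7 (0.991) and Dhx58 (0.990). Irf1 was closest to Parp3 (0.965), Irf8 to Apoe (0.988), Irf5 to Unc50 (0.992), Stat6 to Trpv2 (0.967), Stat4 to Sec63 (0.948) and Irf2 to Phf12 (0.849). The 12 points share their libraries and fall into the groups of the study, so r holds the LPS difference of each gene and the wide spread of the WT LPS samples.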

How the data were processed

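RNA from 12 BMDM samples was sequenced after a stranded mRNA library preparation. For the alignment the authors used STAR with GRCm39, and for the quantification kallisto, and the submitters' processing notes also name fastp. The TPM values that the authors deposited were used as they stand, with 0 columns left unmapped. Whether strand was used in counting is not given in the sources used here. A gene was tested if its value was 1 TPM or more in 3 or more samples after scaling every sample to 1000000, a step used for this filter alone, and 11887 genes met it. Values were taken as log2(TPM + 1), so fold changes of low genes are understated. Limma 3.58.1 (R 4.3.3) had 4 group means over the 12 samples and a variance trend, and p-values were adjusted by the Benjamini-Hochberg method over all tested genes. An exact test of 3 samples against 3 could not go below 0.1, so none is given. A gene passed at an adjusted p under 0.05, and a second rule added a log2 fold change beyond 2 as in the study's methods. The genes named were the 9 members, those most like each by Pearson's r (predicted genes left out), and in each list up to 3 per direction and comparison with the lowest adjusted p among those that passed. Other family factors, receptors and regulators could be named whichever way they went. Some genes that these rules name are not reported here. The fit was tested on simulated data. Alternatives were other pseudocounts, filters and scalings (TMM factors among them), quantile normalization, the compared groups alone, a replicate block, sample weights and each sample left out. Members and lists were chosen with earlier results of these data known. Gene positions are those of GENCODE vM39 for GRCm39.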

Additional observations from a re-analysis of the deposited data

Results flagged for a closer look

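Stat4 was singled out because its LPS samples lay on opposite sides of the UT mean in the genotypes, although the cGAS-/- groups overlapped and their difference did not pass (0.24, limma adjusted p = 0.526). All 3 WT LPS samples lay below the WT UT mean of 1.45 TPM, and all 3 cGAS-/- LPS samples lay above the cGAS-/- UT mean of 0.992 TPM. The difference of the responses was 1.27 on the log2 scale (standard error 0.277), and limma's interaction test gave an adjusted p of 0.067, which misses the threshold. It passed without WT LPS replicate 2 (1.43), without WT LPS replicate 3 (1.23) and with a pseudocount of 5.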

How the results depend on the processing

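Of the members' values under the alternatives, 832 kept direction and side of the threshold, 27 passed newly, 43 no longer passed and 45 changed sign, and the cause was not tested. Fitting only the groups compared gave 2 members past the adjusted p for LPS in WT, 6 for LPS in cGAS-/-, 4 between the genotypes in UT and 0 with LPS. With weights per sample, which ranged from 0.035 in WT LPS replicate 3 to 2.57, these were 6 in cGAS-/-, 3 in UT and 0 with LPS. Between the genotypes with LPS the number was also 0 with a pseudocount of 0.1, with no filter, with a filter of at least 5 (which removes Stat4) and with the replicate block, and the difference of responses had 1 with a pseudocount of 5. Leaving out 1 sample gave 4 to 6 members for LPS in WT, 2 to 5 in cGAS-/-, 0 to 1 in UT, 0 to 4 with LPS and 0 to 2 for the difference; the upper ends, but for WT, came without WT LPS replicate 3.

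With TMM factors the sign changed for Irf2 (0.52) and Stat6 (0.17) with LPS in WT, for Irf2 in UT (0.01), for Irf2 (−0.17) and Stat6 (−0.32) between the genotypes with LPS, and for the difference of Irf2 (−0.18), Irf5 (−0.17), Irf8 (−0.35), Stat2 (−0.18) and Stat6 (−0.25). With quantile normalization it changed for Irf2 (0.32 with LPS in WT, 0.03 in UT, −0.06 with LPS and −0.09 for the difference), Irf5 (−0.16) and Irf8 (−0.27) for the difference, and Stat6 (−0.13 with LPS and −0.12 for the difference). With weights it changed for Irf2 in UT (0.04), Irf5 with LPS (−0.20), and the difference of Irf1 (0.09), Irf5 (−0.58) and Irf8 (−0.26). With 1 sample left out, Irf2 ranged from −0.39 to 0.07 with LPS in WT, −0.08 to 0.22 in cGAS-/-, −0.16 to 0.14 in UT and −0.01 to 0.46 between the genotypes with LPS. In that last comparison Irf5 ranged from −0.44 to 1.13, Irf7 from −0.79 to 0.25, Irf8 from −0.46 to 0.07, Stat2 from −0.42 to 0.14 and Stat6 from −0.11 to 0.28. Irf5 ranged from −1.54 to 0.02 with LPS in WT, and the differences of Irf5, Irf8 and Stat6 from −0.82 to 0.75, −0.33 to 0.21 and −0.01 to 0.38.

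Samples with the same replicate number did not deviate together (r from −0.0315 to 0.0383 over 18 pairs), so no strong shared effect is seen. Whether they share a mouse, culture or day is not stated, and this check cannot tell. With the replicate block, 54 in place of 107 genes passed for the difference and 179 in place of 281 between the genotypes with LPS. Over all settings the number of genes passed was 716 to 5785 for LPS in WT, 1020 to 5746 in cGAS-/-, 92 to 1369 in UT, 5 to 3312 with LPS and 32 to 1496 for the difference, against 3286, 1643, 218, 281 and 107. The number of reads is unknown, so the depth behind low values such as those of Irf4 and Stat4 could not be judged.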
